A study of Homo sapiens with 9 samples.

Results

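Solute carriers are membrane proteins that move amino acids, sugars, ions, vitamins and other small molecules across the cell surface and the membranes of lysosomes and mitochondria. Those named here were all named genes of the deposited table whose symbol has the form SLC, a family number, A and a member number. The rule gave 17 genes of 14778 named genes, each read by 1 probe set and each protein-coding. Carriers whose probe set bears no name in the annotation used were not analysed here. That annotation left 27891 of the 43550 probe sets unnamed. The 17 are thus only a part of the solute carriers, and shares given for them do not describe solute carriers in general. The 17 genes fall into 11 families, and 5 of these families have more than 1 gene among them. Of the 17, 10 also carry an MFSD synonym, for the major facilitator superfamily, a fold in which a bundle of helices opens in turn to either side of the membrane. Another 3, SLC66A1, SLC66A2 and SLC66A3, carry a PQLC synonym, for the PQ-loop repeat shared with the lysosomal cystine exporter.

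The study measured total RNA of HL-60 clone 15 cells, a subline of a human promyelocytic leukaemia that can be driven toward eosinophils, on Affymetrix whole-transcript arrays. There were 3 groups of 3 arrays. The first had a lentiviral construct for RhoH, a GTPase of blood cells, and no 4-hydroxytamoxifen (4-OHT, labelled uninduced RhoH below). The second had the same construct with 100 nM 4-OHT (labelled induced RhoH), and the third a GFP control construct with 100 nM 4-OHT (labelled GFP). 4-OHT, a ligand of the oestrogen receptor, was given to switch on the constructs. With no arrays of GFP cells without it here, an effect of RhoH cannot be told apart from one of the drug in the first comparison below, nor from a difference between transduced populations in those with GFP. The 3 comparisons ask which genes differed between each pair of these groups.

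On the arrays, 1 log2 unit is a doubling of signal, and the deposited signals of different probe sets do not compare transcript amounts between genes. Over all probe sets, arrays correlated at 0.995 to 0.996 within GFP. Within uninduced RhoH this was 0.98 to 0.995, and within induced RhoH 0.974 to 0.983. The median SD of the 17 carriers was 0.158 in uninduced RhoH, 0.147 in induced RhoH and 0.058 in GFP. Over all genes it was 0.132, 0.161 and 0.072. The main limma fit used 1 estimate of the spread per gene for all 3 groups. RHOH itself was 5.15 to 5.25 on the arrays labelled uninduced RhoH, 5.45 to 5.73 on those labelled induced RhoH and 5.90 to 5.94 on those labelled GFP. Uninduced RhoH was below GFP by a log2 difference of -0.72 (limma adjusted p = 0.000420), called in all 18 alternatives run. The gene of the construct thus had its highest mean where the labels place no RhoH construct, and all directions given here follow the labels. Whether its probes lie in the transduced sequence was not examined. Of 6 listed promyelocyte markers 4 were measured (MPO, PRTN3, AZU1 and CTSG), with array means of 10.58 to 12.32. The 1 lymphoid, 2 erythroid, 3 megakaryocyte and 4 epithelial or stromal markers that were measured had array means between 5.18 and 6.87, with KRT18 the highest of the last list, at group means of 8.77 to 8.82. With no comparison of amounts between genes and no detection calls, these levels do not settle which cell types were present. On replicate 1 of uninduced RhoH 13 of the 17 carriers were below their group mean, on replicate 1 of induced RhoH 15, and on its replicate 3 only 2.

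Of the 17 carriers, 5 were called in at least 1 comparison, at a limma adjusted p under 0.05 over all 14778 genes. SLC75A1, SLC49A4 and SLC66A2 had their highest mean in uninduced RhoH and their lowest in GFP, and SLC66A1 and SLC38A12 the reverse. For each of the 5 the mean of the arrays labelled induced RhoH lay between those of the other groups.

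**Figure D1:**
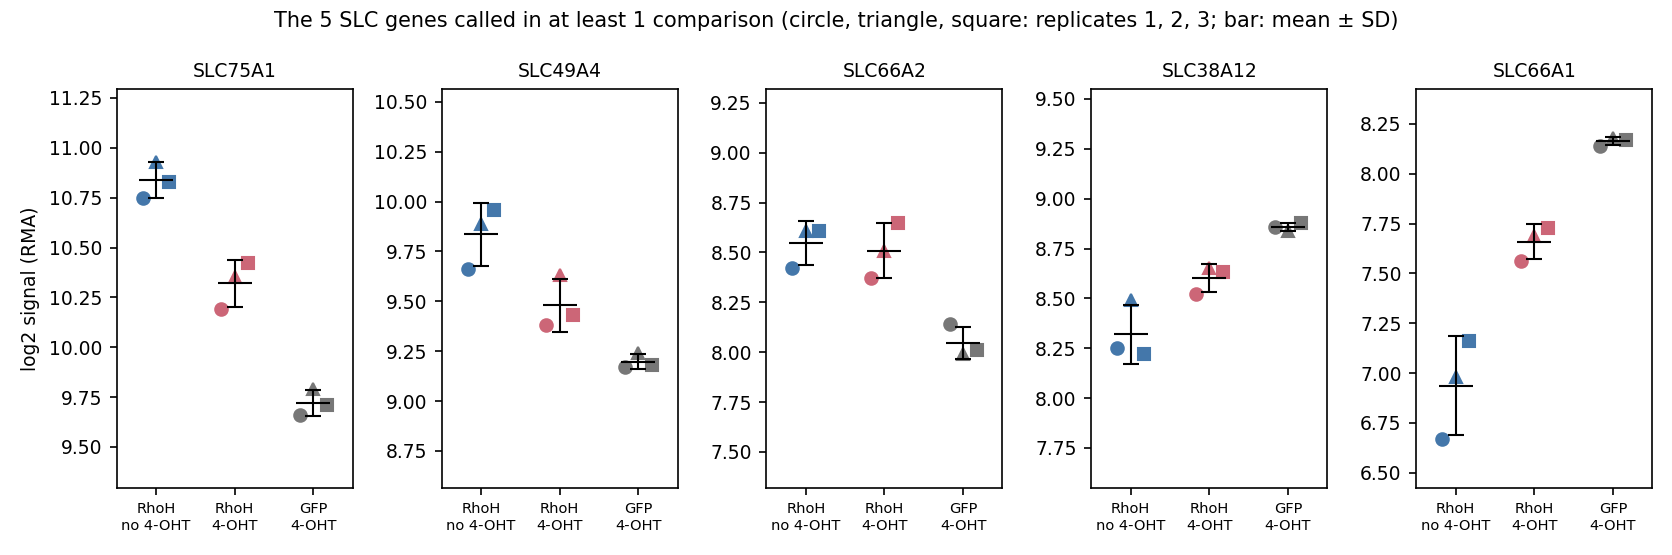
Log2 signal of the 5 carriers called in at least 1 comparison, on each of the 9 arrays, with the mean and SD of each group of 3 and a vertical span of 2 log2 units in every panel. SLC75A1 steps down from uninduced RhoH (10.84) through induced RhoH (10.32) to GFP (9.72), and SLC66A1 steps up from 6.94 through 7.66 to 8.16, with no overlap between any groups of either gene.

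SLC75A1, known earlier as MFSD10 or TETRAN, is a major facilitator protein named for its likeness to bacterial tetracycline carriers. Its log2 signal was 10.75, 10.93 and 10.83 on the uninduced RhoH arrays, 10.19, 10.35 and 10.42 on the induced RhoH arrays and 9.66, 9.79 and 9.71 on the GFP arrays. The 3 groups did not overlap.

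SLC66A1, also PQLC2 or LAAT1, exports the cationic amino acids lysine and arginine from lysosomes. It measured 6.67, 6.98 and 7.16 in uninduced RhoH, 7.56, 7.69 and 7.73 in induced RhoH, and 8.14, 8.18 and 8.17 in GFP. No array of a group reached into another, and the uninduced arrays were spread most widely.

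SLC49A4, also DIRC2, is a protein of the lysosomal membrane. Its signal was 9.66, 9.89 and 9.96 without 4-OHT, 9.38, 9.63 and 9.43 with it, and 9.17, 9.24 and 9.18 in GFP. The groups were again separate, narrowly so between the lowest uninduced array (9.66) and the highest induced one (9.63).

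SLC66A2 (PQLC1) shares the PQ-loop fold of SLC66A1. Its values were 8.42, 8.61 and 8.61 in uninduced RhoH and 8.37, 8.51 and 8.65 in induced RhoH, against 8.14, 7.99 and 8.01 in GFP. Both RhoH groups overlapped each other and lay above every GFP array.

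SLC38A12, also TMEM104, is numbered in the family of sodium-coupled neutral amino acid carriers. It was 8.25, 8.49 and 8.22 in uninduced RhoH, 8.52, 8.65 and 8.63 in induced RhoH and 8.86, 8.84 and 8.88 in GFP, with no overlap between groups.

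The stretches before the starts of these genes are shown because 4 of the 5 have an entry in the RefSeq promoter table of GRCh38.p14, which holds 14 of the 17 carriers. Each is the 250 bases upstream of the annotated start, with matches to the searched motifs in capitals. SLC75A1 lies at chr4:2934826-2935075 (minus strand, the upstream one of 2 listed starts), SLC49A4 at chr3:122794819-122795068 (plus), SLC66A1 at chr1:19312076-19312325 (plus) and SLC38A12 at chr17:74776249-74776498 (plus).
SLC75A1: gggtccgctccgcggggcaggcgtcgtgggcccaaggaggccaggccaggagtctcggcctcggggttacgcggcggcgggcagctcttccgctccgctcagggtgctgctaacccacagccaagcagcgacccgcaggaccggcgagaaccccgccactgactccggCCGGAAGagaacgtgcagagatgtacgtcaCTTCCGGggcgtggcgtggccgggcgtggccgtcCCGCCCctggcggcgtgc
SLC49A4: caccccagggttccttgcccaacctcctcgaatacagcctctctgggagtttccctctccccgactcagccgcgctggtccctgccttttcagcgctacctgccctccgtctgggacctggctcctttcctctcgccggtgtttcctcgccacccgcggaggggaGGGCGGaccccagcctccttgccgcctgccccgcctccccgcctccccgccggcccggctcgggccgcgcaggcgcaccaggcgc
SLC66A1: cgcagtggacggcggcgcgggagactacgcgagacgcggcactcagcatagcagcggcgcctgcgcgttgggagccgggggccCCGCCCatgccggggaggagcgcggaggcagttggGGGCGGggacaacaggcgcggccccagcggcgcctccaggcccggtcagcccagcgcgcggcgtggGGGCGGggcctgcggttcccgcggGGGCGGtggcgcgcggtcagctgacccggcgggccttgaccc
SLC38A12: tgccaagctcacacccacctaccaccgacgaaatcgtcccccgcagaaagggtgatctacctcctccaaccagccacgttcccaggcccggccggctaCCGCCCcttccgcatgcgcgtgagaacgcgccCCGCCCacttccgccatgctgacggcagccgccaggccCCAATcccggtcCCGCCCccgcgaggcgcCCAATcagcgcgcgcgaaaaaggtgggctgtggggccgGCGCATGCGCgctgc

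All 4 windows are rich in G and C, from 70.8% in SLC38A12 to 80.0% in SLC66A1. The GC box GGGCGG, read on both strands like every motif here, was present 4 times in SLC66A1, 3 times in SLC38A12 and once each in the shown windows of SLC49A4 and SLC75A1. It occurred in 13 of the 14 carriers with a window (first listed start) and in 42.6% of the 35116 windows of that length in the table. SLC75A1 also held 2 matches to the ETS core CCGGAAG, found in 8.52% of all windows, while the window at its other listed start (chr4:2934188-2934437) held 0 ETS cores and 0 GC boxes. SLC38A12 held 2 matches to CCAAT (32% of all windows) and 1 to the palindromic site of NRF1 (1.03%). None of the 4 held the E-box CACGTG (6.34%), which lies within the longer element of lysosomal gene promoters, nor the full oestrogen response element (0.0399%). Of the 14 carriers, SLC60A2 alone had the E-box. No 2 of these matches overlapped in the windows shown, and a match of letters is not a measured site.

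With 4-OHT in the cells with the RhoH construct, SLC66A1 rose and SLC75A1 fell. SLC66A1 went from 6.94 ± 0.24 (SD, n = 3) to 7.66 ± 0.09, a 1.65-fold rise (log2 fold change 0.72, SE 0.12, limma adjusted p = 0.00846). SLC75A1 went from 10.84 ± 0.09 to 10.32 ± 0.12, a fall of 1.43-fold (log2 fold change -0.52, SE 0.09, limma adjusted p = 0.0129). These 2 of 17 carriers are 11.8%, against 3.78% of all genes tested (3.02% higher and 0.751% lower) and 4.50% of the 11902 protein-coding genes. The carriers were brighter than most probe sets, with array medians of 7.46 to 7.97 against 5.43 to 5.55 over all probe sets. With the dimmest 25% of genes left out, 688 of 11083 were called, a larger share than that of all genes. Of all calls 80.1% were higher, or 61.7% after quantile normalization again. The median log2 fold change of the 17 was -0.04 and that of all genes 0.00, with 8 carriers above and 9 below 0. Of the 4 promyelocyte markers CTSG fell in this comparison (-0.83, limma adjusted p = 0.00703), with array means of the 4 at 12.28 to 12.32 before and 11.82 to 12.18 after, and its part in the carrier values was not tested.

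Another 3 carriers had non-overlapping arrays in this comparison but did not pass. SLC66A3, the third PQ-loop gene, was at 0.50 (SE 0.15, limma adjusted p = 0.124), SLC49A4 at -0.36 (SE 0.10, 0.109) and SLC38A12 at 0.28 (SE 0.09, 0.171). In all 5 carriers, or 29.4%, were free of overlap, against 14.5% of all genes, and the same 5 were at an unadjusted p under 0.05 in limma (also 14.5% of all genes). SLC66A3 passed without uninduced RhoH replicate 2 (0.70, limma adjusted p = 0.00932), whose value of 7.54 stood above the 6.92 and 6.97 of the other uninduced arrays. SLC49A4 passed without uninduced RhoH replicate 1 (-0.45, limma adjusted p = 0.0452).

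The remaining 12 carriers lay between -0.35 and 0.16 with overlapping arrays. SLC25A15, the mitochondrial ornithine carrier of the urea cycle, had the widest spread of the 17, at 7.50, 7.90 and 8.49 on the induced arrays. Its 95% interval, from -0.82 to 0.11, leaves room for a fall as large as that of SLC75A1. The interval of SLC66A2 was narrower, from -0.26 to 0.19.

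Both calls were lost in some alternatives. Fitted on the 6 compared arrays alone, SLC66A1 had a limma adjusted p of 0.0655 and SLC75A1 of 0.0814, so that no carrier passed. Without uninduced RhoH replicate 3, SLC75A1 kept its log2 fold change of -0.52 with a limma adjusted p of 0.0537, and the count was 1. Leaving out both RhoH replicate 1 arrays, an alternative chosen with results in view, kept 1 higher and 1 lower.

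**Figure D2:**
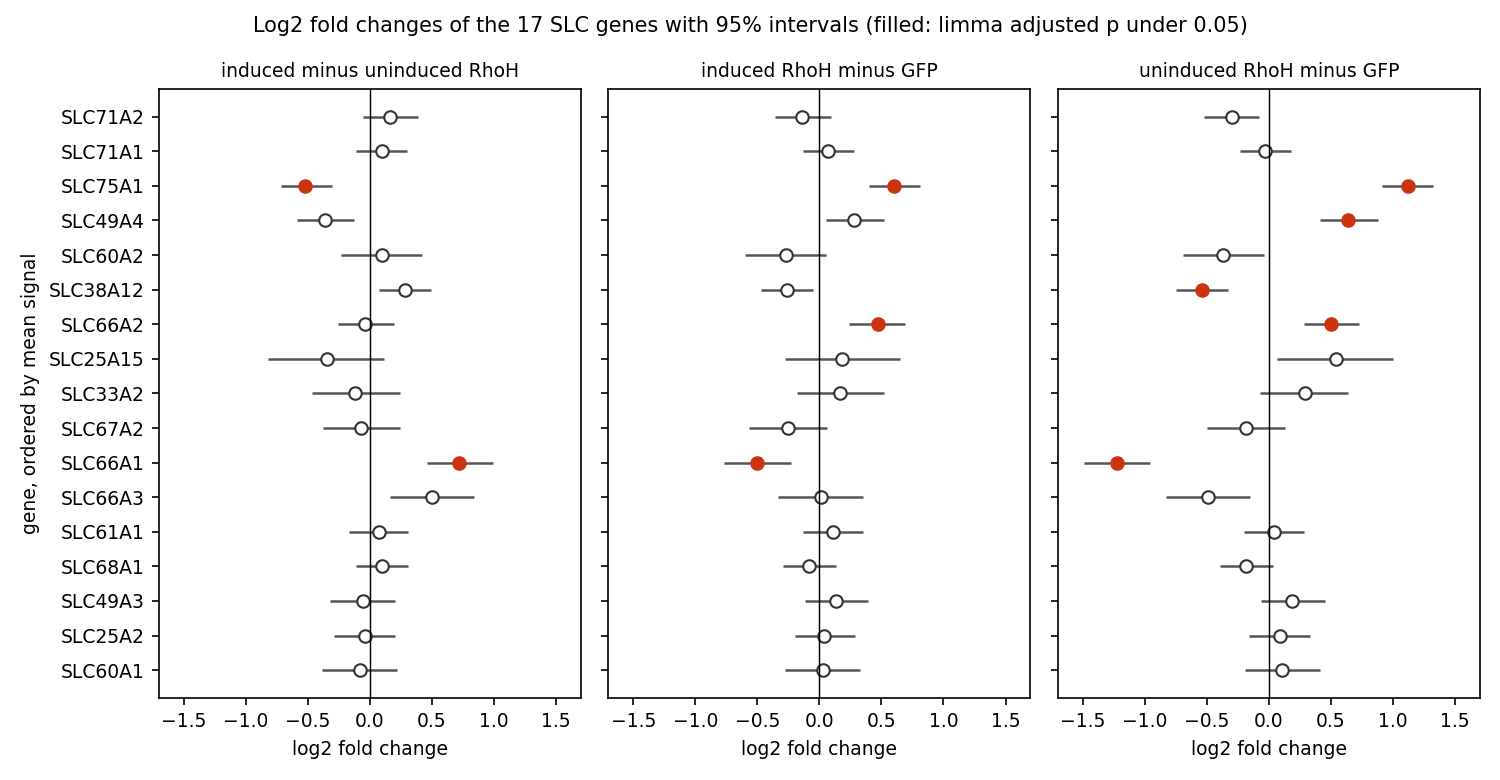
Log2 fold changes of the 17 carriers in the 3 comparisons, as points with 95% intervals from limma, filled where the adjusted p is under 0.05, with genes ordered by mean signal. The number of filled points is 2 for induced minus uninduced RhoH, 3 for induced RhoH minus GFP and 5 for uninduced RhoH minus GFP.

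Against GFP cells given the same drug, the arrays labelled induced RhoH had higher SLC75A1 and SLC66A2 and lower SLC66A1. SLC75A1 was 10.32 ± 0.12 (SD, n = 3) against 9.72 ± 0.06, 1.52-fold higher (log2 fold change 0.60, SE 0.09, limma adjusted p = 0.00526). SLC66A2 was 8.51 ± 0.14 against 8.05 ± 0.08, 1.38-fold higher (0.47, SE 0.10, limma adjusted p = 0.0301). SLC66A1 was 7.66 ± 0.09 against 8.16 ± 0.02, 1.41-fold lower (-0.50, SE 0.12, limma adjusted p = 0.0448). The 3 calls are 17.6% of the carriers, against 4.49% of all genes (1.74% higher and 2.75% lower) and 5.13% of protein-coding genes. With the dimmest 25% of genes left out, 749 of 11083 were called. The carriers' median log2 fold change was 0.04 beside 0.03 for all genes.

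Granulocyte genes moved in the same comparison. All 4 measured promyelocyte markers were called higher in induced RhoH than in GFP, by 0.93 (MPO) to 1.69 (PRTN3), and so were both measured eosinophil markers, EPX (1.99) and CLC (1.55). The promyelocyte array means were 11.82 to 12.18 in induced RhoH and 10.58 to 10.62 in GFP. The eosinophil ones were 8.49 to 9.34 and 6.99 to 7.07. Their part in the carrier differences was not tested. In a bulk sample, fewer cells of a type and less RNA per cell cannot be told apart.

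SLC49A4 (0.28, SE 0.10, limma adjusted p = 0.206), SLC38A12 (-0.26, SE 0.09, 0.190) and SLC67A2 (-0.25, SE 0.14, 0.424) had arrays that did not overlap with GFP and did not pass. SLC67A2, formerly MFSD9, was 7.23, 7.67 and 7.67 in induced RhoH and within 7.77 to 7.78 in GFP. With these 3, the groups were free of overlap for 6 carriers, or 35.3%, against 22.5% of all genes. At an unadjusted p in limma under 0.05 there were 3 higher and 2 lower, against 16.4% of all genes. SLC66A3, which was low in uninduced RhoH, had equal means of 7.64 in induced RhoH and GFP (0.01, 95% interval -0.33 to 0.35).

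SLC75A1 kept its call in each of the 18 alternatives run. The other 2 calls were near the threshold. SLC66A2 lost its call when uninduced RhoH replicate 3 (limma adjusted p = 0.0517), induced RhoH replicate 2 (0.0674) or 3 (0.0699), or GFP replicate 1 (0.0691), 2 (0.142) or 3 (0.135) was left out, and on the 6 arrays alone (0.0548). SLC66A1 lost its call without uninduced RhoH replicate 2 (limma adjusted p = 0.0713), induced RhoH replicate 1 (0.110), 2 (0.0822) or 3 (0.0696), or GFP replicate 1 (0.138), 2 (0.172) or 3 (0.158). The count of called carriers was 1 without induced RhoH replicate 2 or 3 or any 1 GFP array.

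The arrays labelled uninduced RhoH and GFP differed in 5 carriers, 3 higher and 2 lower in uninduced RhoH. They differ in both construct and drug. SLC75A1 was 2.17-fold higher (log2 fold change 1.12, SE 0.09, limma adjusted p = 2.65e-05), SLC49A4 1.56-fold (0.64, SE 0.10, 0.00221) and SLC66A2 1.42-fold (0.50, SE 0.10, 0.00716). SLC66A1 was 2.34-fold lower (-1.22, SE 0.12, limma adjusted p = 8.52e-05) and SLC38A12 1.45-fold lower (-0.54, SE 0.09, 0.00321). All 5 kept their calls in each of the 18 alternatives.

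Those 5 of 17 are 29.4%, against 15.3% of all genes (6.01% higher and 9.27% lower) and 17.6% of protein-coding genes. With the dimmest 25% of genes left out, 2373 of 11083 were called, SLC66A3 also among them. The median size of the difference, sign ignored, was 0.30 in the carriers and 0.16 in all genes, and the signed medians were 0.04 and 0.05. Groups did not overlap for 11 carriers (64.7%), against 37.3% of all genes. At an unadjusted p in limma under 0.05 there were 4 higher and 5 lower carriers, against 25.8% of all genes. The same markers differed here too: promyelocyte array means were 12.28 to 12.32 in uninduced RhoH and 10.58 to 10.62 in GFP, and their part was not tested.

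**Figure D3:**
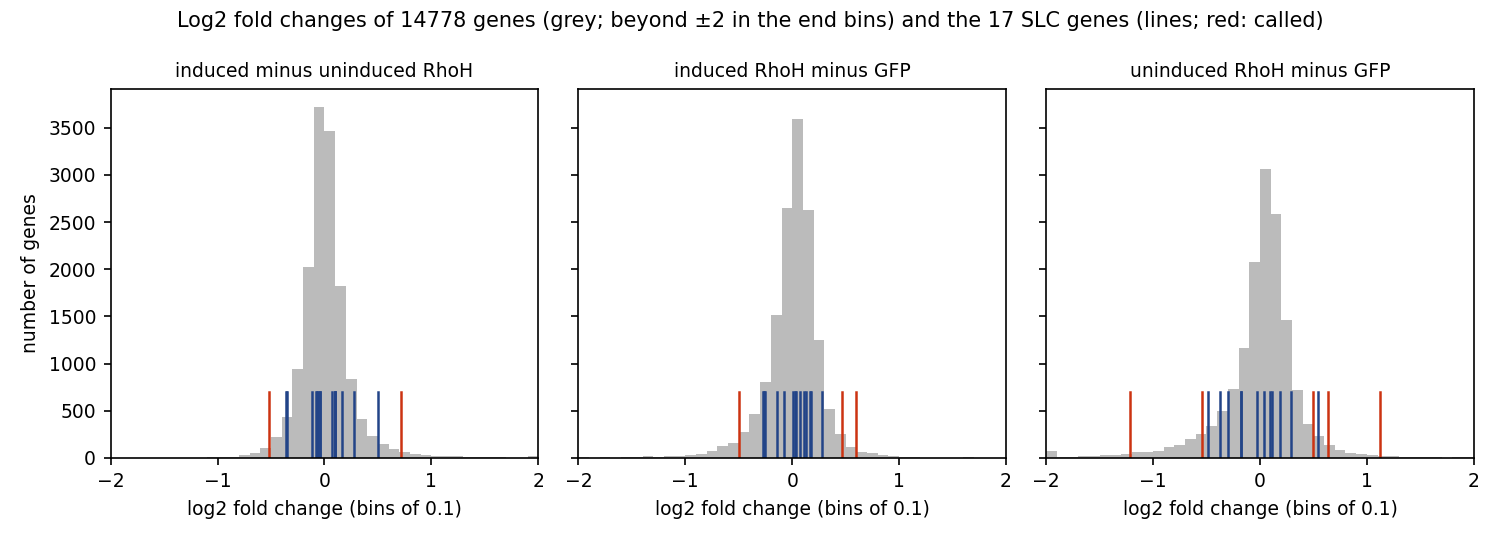
Number of genes by log2 fold change in bins of 0.1 for all 14778 named genes (grey bars, values beyond 2 in the end bins) in the 3 comparisons, with a line for each of the 17 carriers, red where called. The carriers run from -0.52 to 0.72, from -0.50 to 0.60 and from -1.22 to 1.12 in the 3 comparisons, around medians of -0.04, 0.04 and 0.04.

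Among the 12 carriers not called against GFP without induction, 6 had separate arrays. SLC66A3 was 6.92, 7.54 and 6.97 in uninduced RhoH and 7.56, 7.71 and 7.64 in GFP (-0.49, SE 0.15, limma adjusted p = 0.0565), and passed without uninduced RhoH replicate 2 (-0.69, 0.00263). SLC25A15 was 8.14, 8.49 and 8.32 against 7.71, 7.88 and 7.75 (0.54, SE 0.21, limma adjusted p = 0.133), and passed without induced RhoH replicate 1 (0.0437) or 3 (0.0200), which enter only the estimate of the spread. The induced arrays covered the whole range of both groups.

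SLC71A2 (HIATL1), a major facilitator gene named for a transcript abundant in hippocampus, was 10.31, 10.51 and 10.49 in uninduced RhoH and 10.72, 10.79 and 10.70 in GFP. The difference of -0.30 (SE 0.10) had a limma adjusted p of 0.0776, and of 0.0331 without induced RhoH replicate 3. SLC60A2, known as the sodium-dependent glucose carrier NaGLT1, was 8.68, 9.13 and 9.11 against 9.24, 9.37 and 9.42 (-0.37, SE 0.15, limma adjusted p = 0.139). The last 2 with separate arrays were SLC67A2 (-0.18, SE 0.14, limma adjusted p = 0.455) and SLC68A1, formerly MFSD13A (-0.18, SE 0.09, limma adjusted p = 0.268).

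**Figure D4:**
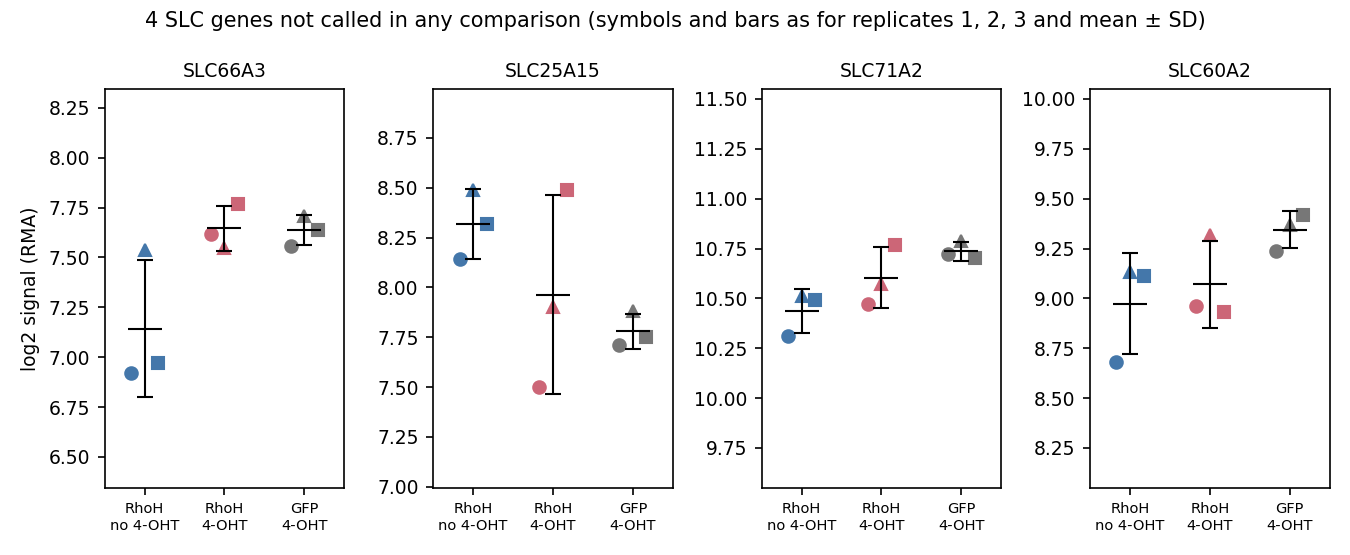
Log2 signal of SLC66A3, SLC25A15, SLC71A2 and SLC60A2 on each of the 9 arrays with group means and SD, on panels that each span 2 log2 units. None of these 4 was called, and the 3 induced RhoH arrays of SLC25A15 run from 7.50 to 8.49.

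The other 6 carriers overlapped between groups in all 3 comparisons. SLC71A1 (HIAT1), the paralog of SLC71A2, stayed within 10.41 to 10.72 on all 9 arrays. SLC33A2 (MFSD3), numbered with the acetyl-CoA carrier of the endoplasmic reticulum, ran from 7.39 to 7.97, with 7.46 on uninduced RhoH replicate 1 and 7.97 and 7.93 on the other uninduced arrays. Without both RhoH replicate 1 arrays it differed from GFP by 0.45 in uninduced RhoH (limma adjusted p = 0.0497), against 0.29 (0.301) with all arrays. SLC61A1 (MFSD5), a molybdate carrier, lay between 7.19 and 7.61.

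The rest were SLC49A3 (MFSD7), SLC25A2 and SLC60A1 (MFSD4A). SLC49A3 was within 6.37 to 6.87, SLC25A2, a second mitochondrial ornithine carrier, within 6.02 to 6.38, and SLC60A1 within 5.77 to 6.37. The median signal over all 43550 probe sets was 5.43 to 5.55 per array, and the table holds no detection call. For these 3 the 95% intervals of the log2 differences ran at most from -0.39 to 0.45. SLC61A1, SLC68A1, SLC49A3, SLC25A2 and SLC60A1 fell outside the naming rule and are given to account for all 17.

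**Figure D5:**
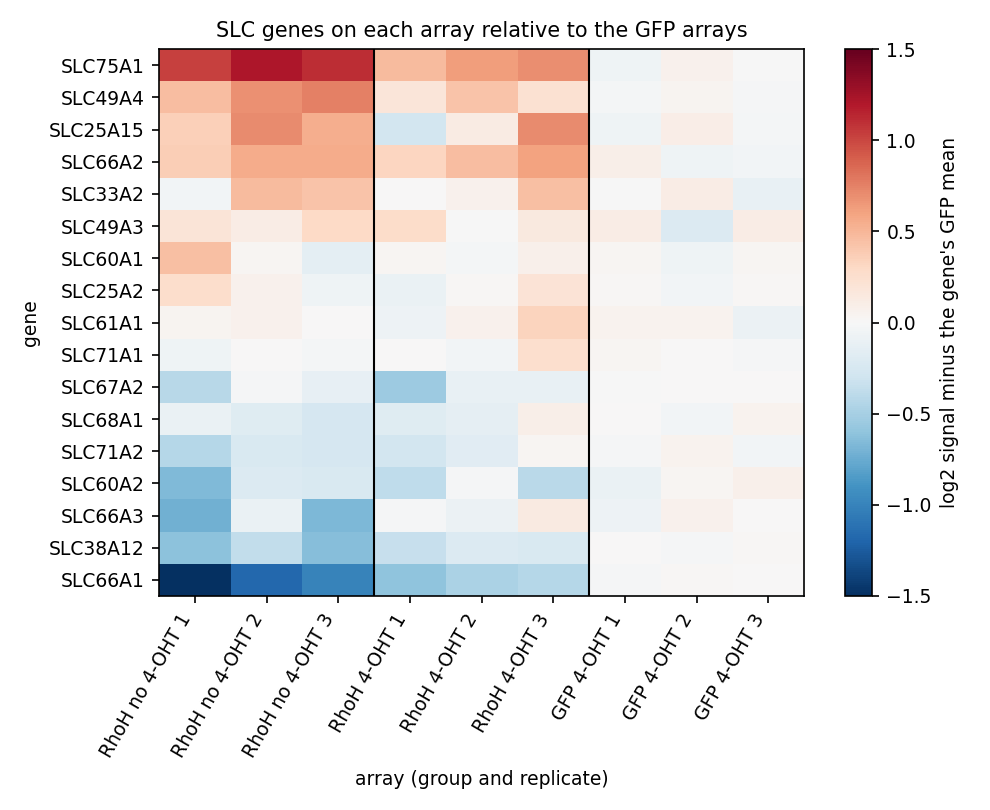
Log2 signal of each of the 17 carriers on the 9 arrays minus that gene's mean over the GFP arrays (colour scale from -1.5 to 1.5), with genes ordered by the difference between uninduced RhoH and GFP. SLC75A1 at the top is above its GFP mean on all 6 RhoH arrays and SLC66A1 at the bottom below it, with the stronger colours on the uninduced arrays.

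In the PQ-loop family, SLC66A1 was lower and SLC66A2 higher in both RhoH groups than in GFP. The log2 fold change of SLC66A1 minus that of SLC66A2 was -0.97 for induced RhoH and -1.73 for uninduced RhoH against GFP, and 0.76 for the induction. Each had a two-sided exact permutation p of 0.1 over the within-array differences, the smallest that 3 arrays against 3 allow, and 0.191 after adjustment over 21 tests (7 pairs in 3 comparisons). The changes of SLC66A1 and SLC66A3 differed by 0.22 in the induction, with overlapping arrays (exact permutation p = 0.5, adjusted 0.553). Against GFP they differed without overlap, by -0.51 for induced and -0.73 for uninduced RhoH (each exact permutation p = 0.1, adjusted 0.191). SLC66A2 minus SLC66A3 was free of overlap in all 3 comparisons, at -0.54 for the induction, 0.46 for induced RhoH and 1.00 for uninduced RhoH against GFP (the same exact permutation p). For SLC49A4 and SLC49A3 the difference between their changes was separate from the spread only for uninduced RhoH against GFP (SLC49A3 minus SLC49A4 -0.45, exact permutation p = 0.1, adjusted 0.191). For the ornithine carriers SLC25A15 and SLC25A2 it was within the spread in all 3 comparisons (exact permutation p = 0.2 to 0.7). None of the 21 passed after adjustment. Cross-hybridisation between paralogs was not examined.

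Substrate classes were assigned by family number alone, which does not show what each gene carries. Amino acid and peptide families had 4 genes (SLC66A1, SLC66A2, SLC66A3 and SLC38A12), the first 3 of them of 1 family. They held 1 of the 2 calls of the induction and 2 of the 3 of induced RhoH against GFP. For uninduced RhoH against GFP they held 3 of the 5. Over all genes 3.78%, 4.49% and 15.3% were called in these comparisons. The 8 genes of families with no class assigned gave 1 call in each comparison, SLC75A1 every time. Of the 2 genes of the SLC49 family, classed with metals and heme, SLC49A4 was called against GFP without induction. The 2 mitochondrial carriers and SLC33A2 were not called. The classes are too small to set against each other.

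Carriers and partner proteins outside the symbol rule gave 17 measured genes. None was called for the induction, where 3.78% of all genes were, or for induced RhoH against GFP, where 4.49% were. With 17 genes, no call is close to those shares. At an unadjusted p of limma under 0.05, 2 were higher and 5 lower for the induction, against 14.5% of all genes. For induced RhoH against GFP these were 2 and 1, against 16.4% of all genes. Uninduced RhoH differed from GFP in 9, with 7 higher and 2 lower, where 15.3% of all genes were called (6.01% higher and 9.27% lower). The higher ones included SLC35D4 (0.52), BSG, the chaperone of lactate carriers (0.43, limma adjusted p = 0.0238), the haem exporter FLVCR1 (0.47) and the mitochondrial calcium channel MCU (0.34). The lower ones were SLC9D1 (-0.72) and the phosphate exporter XPR1 (-0.39). Among 6 genes that still bear MFSD symbols, a group added after the data were examined, MFSD6 rose with 4-OHT (0.80, limma adjusted p = 0.00290) and was lower in both RhoH groups than in GFP (-0.64 induced, limma adjusted p = 0.00843, and -1.44 uninduced, 1.34e-05). MFSD11 was lower in uninduced RhoH (-0.72, limma adjusted p = 0.0102).

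Genes of the amino acid response, the programme by which cells meet a shortage of amino acids, were measured for 8 of 10 listed regulators and enzymes. With 4-OHT, where 0.751% of all genes were called lower, 2 of the 8 were. These were the asparagine synthetase gene ASNS (-0.59, limma adjusted p = 0.0384) and the transcription factor gene ATF5 (-0.72, 0.0280). Against GFP, 4 of the 8 were called higher in both RhoH groups (1.74% of all genes in induced and 6.01% in uninduced RhoH), namely ASNS (0.92 induced, 1.51 uninduced), ATF5 (0.80 and 1.52) and the serine synthesis genes PHGDH (1.07 and 1.22) and PSAT1 (1.02 and 1.36). The other 4 were not called. ATF4, whose protein drives the response, was at 0.06 and 0.12, DDIT3 at -0.28 and -0.44 (limma adjusted p = 0.368 and 0.0645), SESN2 at -0.24 and 0.06, and TRIB3 at 0.22 and 0.09. The comparisons with GFP share the GFP arrays and are given side by side only.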

How the data were processed

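The authors deposited 1 table of log2 values for 43550 probe sets on 9 arrays. The submitters' processing notes name RMA, limma and Affymetrix Power Tools, without versions, and no genome build is named in the labels. By its method RMA corrects background, quantile-normalizes and summarises probes per probe set, which compresses low signals. The values were used as deposited, with no filter on dim genes. They hold no counts, so the number of arrays limits the precision. Groups and replicate numbers came from the sample titles, and the design text calls the replicates biological. No 2 arrays were identical.

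The platform annotation named 15659 probe sets with 1 symbol and left 27891 unnamed. All 15659 Entrez identifiers were found in RefSeq (GRCh38.p14). The probe set of highest mean was kept for the 521 genes with several, which gave 14778 genes. The 3 group means were fitted with limma 3.58.1 in R 4.3.3 over all 9 arrays (6 residual and 3.86 prior degrees of freedom), with Benjamini-Hochberg adjustment over all genes and calls at an adjusted p under 0.05. Where a sentence names a limma adjusted p for its first gene or setting, the later ones follow in the same place of their brackets. Errors are SD over arrays and SE of the fit. The fit was tested on simulated data. There 67, 67 and 66 genes were changed by 0.5, 1 and 2 log2 units in induced RhoH. Each gene had normal noise of the same SD in all 3 groups. The real groups differed in spread and gave more calls, so the simulated shares need not hold for them. For induced minus uninduced RhoH it called 41.8% of genes changed by 0.5 log2 units and 85.1% of those changed by 1. A difference near 0.5 that was not called is thus not shown to be absent.

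The genes named are, per comparison, the called carriers (up to 10 each way) and, where under 3 were called in a direction, the 3 largest non-overlapping ones, plus the 10 carriers of highest mean, the highest of each substrate class and members of 3 lists. This gave 12 genes, and the other 5 are described for completeness. Of those 3 lists, the endolysosomal one had 1 of 12 symbols among the named genes (SLC66A1). The lists of amino acid response transporters and of sugar and lactate carriers had 0, as had ABC transporters. These are not analysed here. Genes called measured above are those with a named probe set. Whether unnamed probe sets read the other listed genes was not examined. The members, lists and alternatives were chosen with earlier results of these data known.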

Additional observations from a re-analysis of the deposited data

How the results depend on the processing

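The carriers' fold changes and counts, RHOH and the counts over all genes were recomputed under 18 alternatives, and no call of a carrier or of RHOH changed its direction in them. Markers, other gene lists and the paralog tests were not recomputed. The number of called carriers was 2 for the induction, 3 for induced RhoH against GFP and 5 for uninduced RhoH against GFP. On the 6 compared arrays alone the induction gave 0 (limma put 3 upward and 2 downward differences at an unadjusted p under 0.05 in that fit). Its fold changes were those of the main fit, and it left out the GFP arrays. The carriers' median SD was 0.058 in GFP, 0.158 in uninduced RhoH and 0.147 in induced RhoH. The part of this in the lost calls was not tested. For uninduced RhoH against GFP the count was 7 on the 6 arrays alone, where 2833 of all genes were called. It was 8 (5 higher, 3 lower) after quantile normalization again (2798 of all genes) and 11 (5 higher, 6 lower) with array weights (4326 of all genes). With 1 array left out at a time, the counts ran from 1 to 3 for the induction, from 1 to 3 for induced RhoH against GFP and from 5 to 7 for uninduced RhoH against GFP. With the replicate block they were 2, 3 and 6. Deviations of same-numbered arrays over all genes correlated at 0.543, 0.368 and 0.065 for replicates 1, 2 and 3 between the RhoH groups. Between RhoH and GFP they correlated at -0.026 to 0.154. Replicates 1 and 2 of the RhoH groups thus shared part of their deviations, and the main fit did not pair arrays. The block called SLC66A3 in uninduced RhoH against GFP (limma adjusted p = 0.0489) and changed no other call of a carrier. Without both RhoH replicate 1 arrays, chosen after seeing the data, the counts were 2, 3 and 7. The log2 fold change of RHOH in the induction, 0.38 and called (limma adjusted p = 0.0451), stayed in direction but was not called on the 6 arrays alone (0.38), with arrays centred on their median (0.36) or without both RhoH replicate 1 arrays (0.39). With 1 array left out it ran from 0.32 to 0.45 and was called only without induced RhoH replicate 3 (limma adjusted p = 0.0184), so that 11 of 18 alternatives ended the call. For induced RhoH against GFP, RHOH was -0.33 (limma adjusted p = 0.0717), ran from -0.40 to -0.26 with 1 array left out and passed after quantile normalization again (-0.37) and without induced RhoH replicate 2 (limma adjusted p = 0.0495). SLC49A4 passed after quantile normalization again in the induction (limma adjusted p = 0.0350) and for induced RhoH against GFP (0.0438). Over all genes, the 558 calls of the induction became 190 on the 6 arrays alone, 953 after quantile normalization again and 950 with array weights (80.1%, 95.8%, 61.7% and 59.2% of them higher). Array weights gave 1176 for induced RhoH against GFP (664 without them) and 4326 for uninduced RhoH against GFP (2258). With 1 array left out these ran from 304 to 666, 279 to 861 and 1450 to 2670, lowest without uninduced RhoH replicate 3 in the induction and without GFP replicate 2 in the others. The table gives no background signal per probe set, so which carriers were above background was not examined.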
